A study of Mus musculus with 19 samples.

Results

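The genes described here are the basic leucine zipper (bZIP) transcription factors of the mouse kidney, among them the subunits of AP-1. They were taken from the authors' deposited list of transcription factors, as entries of the bZIP family whose protein matched its best database hit at an identity of at least 95 percent. They also had to reach at least 1 FPKM (fragments scaled by gene length and library size) in at least 4 of the 19 libraries. That left 38 entries of the 19287 in the expression table, 37 of them with a gene symbol, and 29 were at or above 1 FPKM in all 19 libraries. The list held 56 bZIP rows, of which 46 passed the identity minimum and 45 had expression values. The lowest identity kept was 96.6 percent (Crem), and the highest left out was 94.0 percent (Creb3). Nfe2l3, which reached 1 FPKM in 4 libraries, was the entry just inside the expression minimum, and Fosb, with 3 libraries, the one just outside. The other entries of sufficient identity that stayed below it were Bach2, Creb3l3, Nfe2, Nrl, Mafa and an unnamed locus. Of the C/EBP genes, a further bZIP branch, the bZIP rows of the list held only Ddit3.

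The libraries came from kidneys of male C57BL/6 mice in 4 groups. IRLacz (n = 4) mice received Lactobacillus casei Zhang by gavage for 4 weeks before ischemia-reperfusion, in which the blood supply of the kidney is stopped and then restored. IRLac (n = 5) mice received a Lactobacillus strain in the same way, taken here to be Lactobacillus acidophilus because the other strain is accounted for. IR (n = 5) mice had the injury and sham (n = 5) mice the operation without it, and no gavage is stated for either, so a strain cannot be told apart from gavage itself. Kidneys of the injured groups were taken on day 5 after the injury, and no day is stated for sham. The labels do not state that each library was a separate animal, so the p-values measure the spread between these libraries.

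A bZIP factor binds DNA as a dimer, holding its partner through a zipper of leucines. AP-1 is a dimer of a JUN protein with a FOS, ATF or MAF relative, and its subunits are known as immediate early genes that respond within minutes to growth factors, cytokines and cell stress. Other branches act in responses to misfolded protein and amino acid shortage (ATF4, ATF6, XBP1, CHOP), oxidants (NRF2), cyclic AMP (CREB) or the time of day (DBP, HLF). RNA was measured, and many of these factors are switched on by phosphorylation, splicing or release from a membrane, which such data do not show.

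The promoters of the members were searched for letters that bZIP factors are known to bind. Promoter windows from RefSeq (assembly GRCm38.p6, 250 bases before to 50 after an annotated start) were found for 31 of the 38 members, 41 windows in all, and were searched on both strands. The letters TGACNTCA, a cyclic AMP response element with 1 free base that JUN and ATF dimers can bind, stood in 8 of the 41 member windows (19.5%) and in 8.83% of the 32851 windows of all genes. The members were Jun, Creb5, Crebzf, Ddit3, Hlf and Maff. The invariant form TGACGTCA, which is included in that count, was in 7.32% of member windows and 1.79% of all, and the AP-1 letters TGANTCA were in 4.88% and 7.81%. TGATGNAA, the composite site of ATF4 with a C/EBP partner, was in 7.32% of member windows and 3.97% of all. The antioxidant element TGACNNNGC was in 17.1% and 12.4%, and the D-box of the PAR factors, TTANGTAA, in 0 member windows and 2.32% of all. A match says only that the letters are there. The 4 windows below belong to genes whose RNA was higher in injured kidneys, and capitals mark the matched letters.
Jun, chr4:95052173-95052472, minus strand: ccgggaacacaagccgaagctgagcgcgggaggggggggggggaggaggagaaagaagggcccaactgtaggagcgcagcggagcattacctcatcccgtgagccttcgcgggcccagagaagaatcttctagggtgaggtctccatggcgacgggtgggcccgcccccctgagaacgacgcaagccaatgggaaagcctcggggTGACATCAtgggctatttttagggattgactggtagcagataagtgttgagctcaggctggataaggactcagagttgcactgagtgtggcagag
Maff, chr15:79348152-79348451, plus strand: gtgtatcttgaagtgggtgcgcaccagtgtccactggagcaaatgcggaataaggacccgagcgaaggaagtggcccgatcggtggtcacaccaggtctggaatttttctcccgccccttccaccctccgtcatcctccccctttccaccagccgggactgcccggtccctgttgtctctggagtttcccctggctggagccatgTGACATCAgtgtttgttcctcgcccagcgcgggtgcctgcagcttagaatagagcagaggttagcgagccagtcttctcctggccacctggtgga
Atf3, chr1:191183284-191183583, minus strand: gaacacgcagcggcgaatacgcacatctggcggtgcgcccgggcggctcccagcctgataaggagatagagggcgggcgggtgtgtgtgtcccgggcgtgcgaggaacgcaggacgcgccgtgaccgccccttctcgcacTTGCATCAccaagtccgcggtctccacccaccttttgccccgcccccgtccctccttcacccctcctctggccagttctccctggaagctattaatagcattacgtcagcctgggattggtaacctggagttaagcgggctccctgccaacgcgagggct
Ddit3, chr10:127290543-127290842, plus strand: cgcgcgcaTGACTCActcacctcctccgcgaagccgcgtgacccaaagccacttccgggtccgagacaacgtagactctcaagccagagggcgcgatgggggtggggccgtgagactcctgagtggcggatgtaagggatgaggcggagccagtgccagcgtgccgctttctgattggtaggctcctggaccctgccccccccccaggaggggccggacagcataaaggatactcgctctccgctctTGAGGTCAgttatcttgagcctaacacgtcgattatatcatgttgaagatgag
Jun and this window of Maff, the last of 3 listed for it, held TGACATCA at the same place, bases 206 to 213 of the window counted from its 5′ end. Atf3 held TTGCATCA, the ATF4 composite letters read from the other strand, at bases 141 to 148. Ddit3 held the AP-1 letters TGACTCA at bases 9 to 15 and TGAGGTCA at bases 248 to 255.

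In sham the means of the members ran from 0.032 FPKM (Fosl1) to 104.8 FPKM (Jund). On the FPKM scale, which compares levels per gene length, the means of 4 members were at 50 or more in sham (Jund, Xbp1, Nfe2l1 and Atf4), 14 were between 10 and 50, 13 between 1 and 10 and 7 below 1. In IR the same bands held 7, 16, 14 and 1 members. Jund headed both groups, with 225.9 ± 38.7 FPKM in IR and 104.8 ± 20.2 FPKM in sham (SD, n = 5 each). Junb was second in IR with 122.4 ± 22.7 FPKM, against 17.13 ± 3.23 FPKM in sham.

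The comparison of IR with sham shows the family on day 5 after injury. Of the 38 members 29 were higher and 2 lower in IR (limma on log2(FPKM + 1), Benjamini-Hochberg adjusted p under 0.05). That is 76.3% higher and 5.26% lower, beside 57% higher and 18.6% lower among all 13594 entries tested, and the median difference was 0.72 for the members and 0.29 for all entries. The top of the order was AP-1 genes together with Maff, a small MAF gene: Junb, Atf3, Maff, Fosl1, Fosl2, Jun and Fos led with log2 differences of 1.74 to 2.76. In whole kidney, fewer cells of a type and less RNA per cell cannot be told apart. The general shift also matters for the smaller rises. Dividing each library by its median ratio brought the median of all entries to 0.01 with 4830 entries higher and 4720 lower, and 25 members higher and 9 lower; quantile scaling gave a median of -0.06, 4222 entries higher and 5294 lower, and 20 members higher and 7 lower.

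**Figure D1:**
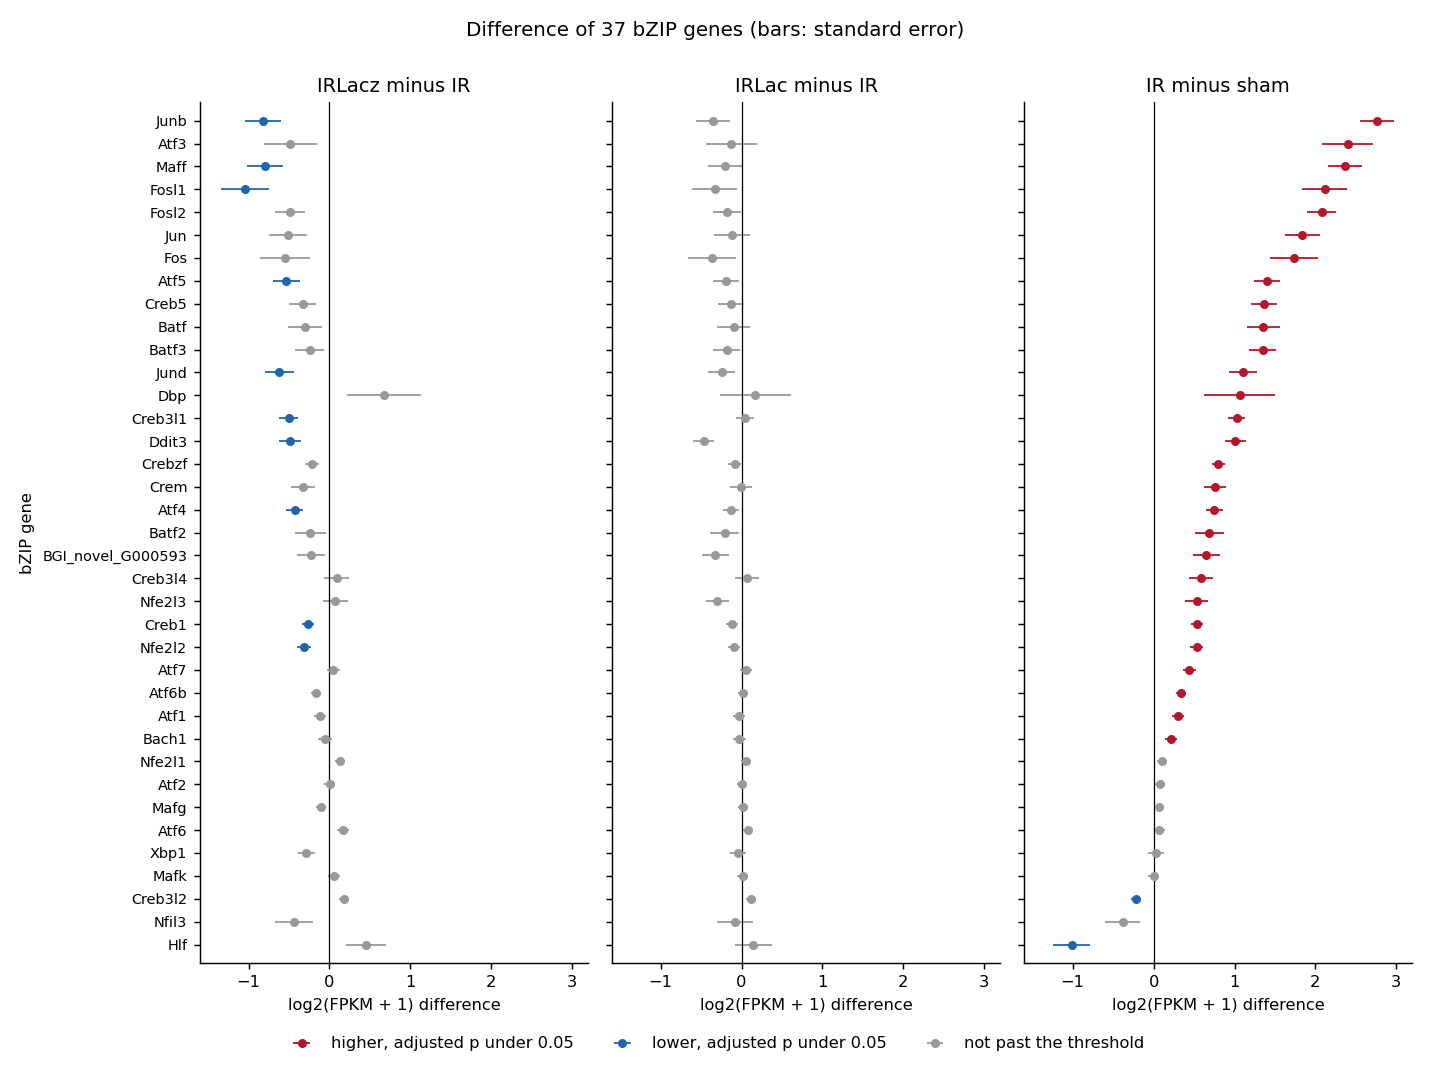
Differences in log2(FPKM + 1) of 37 bZIP genes (rows, ordered by IR minus sham), for IRLacz minus IR, IRLac minus IR and IR minus sham, with standard errors as bars and calls in colour. AP-1 genes and Maff fill the top of the IR panel with values up to 2.76, 10 genes lie left of 0 past the threshold in the IRLacz panel, and none does in the IRLac panel.

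All 3 JUN genes rose in IR. JUN proteins supply the partner that every FOS protein needs. Junb was at 146.3, 128.97, 139.81, 98.08 and 98.96 FPKM in the IR libraries, against 15.95, 15.76, 16.46, 22.8 and 14.7 FPKM in the sham libraries. Jun was at 60.34, 64.66, 66.66, 50.53 and 51.5 FPKM in IR, against 13.23, 15.11, 15.34, 21.24 and 14.11 FPKM in sham. Jund, the most abundant and most constant of the 3 in many tissues, was at 266.77, 239.36, 253.5, 180.73 and 189.13 FPKM in IR, against 95.92, 96.44, 109.91, 137.14 and 84.36 FPKM in sham. No IR library reached down to the sham range for any of these, and the lowest IR libraries were replicates 4 and 5 each time. The log2 differences were 2.76 for Junb (SE 0.21, adjusted p = 3.4e-09), 1.84 for Jun (SE 0.22, adjusted p = 7.6e-07) and 1.10 for Jund (SE 0.17, adjusted p = 1.2e-05). The exons of Jund overlap an antisense gene, Gm11175, and since strand is not stated, reads of the pair cannot be told apart.

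The 3 FOS genes among the members rose as well. FOS proteins bind DNA only beside a JUN partner, and FOS itself is the classic immediate early gene. Fos was at 7.06, 6.15, 6.16, 5.03 and 4.92 FPKM in IR, against 1.46, 0.33, 0.57, 2.91 and 0.78 FPKM in sham. Fosl1, which encodes FRA-1, was at 5.24, 3.51, 5.36, 2.4 and 1.95 FPKM in IR, against 0.08, 0, 0.04, 0 and 0.04 FPKM in sham. Fosl2, which encodes FRA-2, was at 19.57, 19.04, 18.45, 15.23 and 14.26 FPKM in IR, against 2.69, 3.34, 3.93, 3.77 and 2.93 FPKM in sham. Fosl2 thus had the highest level per length of the FOS genes in both groups, and Fosl1 was nearly undetected in sham. On the log2(FPKM + 1) scale Fos rose by 1.74 (SE 0.29, adjusted p = 3.5e-05), Fosl1 by 2.12 (SE 0.28, adjusted p = 2.2e-06) and Fosl2 by 2.08 (SE 0.18, adjusted p = 1.3e-08). Fosb, which failed the expression minimum, ran from 0.28 to 1.04 FPKM over the IR libraries and from 0.09 to 0.18 FPKM over 4 sham libraries, with 6.73 FPKM in sham replicate 4. The exons of Fosl1 overlap Ccdc85b on the opposite strand.

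Atf3 and the BATF genes, which pair with JUN proteins, all rose. Atf3 is induced by many stresses and can repress its targets; it was at 15.53, 11.56, 12.03, 10.57 and 6.01 FPKM in IR, against 0.93, 0.77, 0.99, 2.65 and 1.18 FPKM in sham. Batf, which works with IRF proteins in lymphocytes, was at 5.11, 2.68, 3.35, 2.97 and 1.58 FPKM in IR, against 0.33, 0.76, 0.82, 0.6 and 0.34 FPKM in sham. Neither gene's IR range touched its sham range. The log2 differences were 2.40 (SE 0.31, adjusted p = 1.8e-06) for Atf3 and 1.35 (SE 0.20, adjusted p = 9e-06) for Batf. Batf3, known from dendritic cells, rose by 1.35 (adjusted p = 1.3e-06), and Batf2 by 0.69 (adjusted p = 0.00225; 0.447 after quantile scaling). In the ATF2 branch Creb5 rose by 1.36 and Atf7 by 0.44, while Atf2 averaged 12.55 ± 0.98 FPKM in IR, against 11.82 ± 0.52 FPKM in sham (adjusted p = 0.268). The exons of Atf7 overlap Gm28047 on the same strand. Atf7 and Atf2 took a negative sign after quantile scaling, and Atf2 also after median-ratio scaling.

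**Figure D2:**
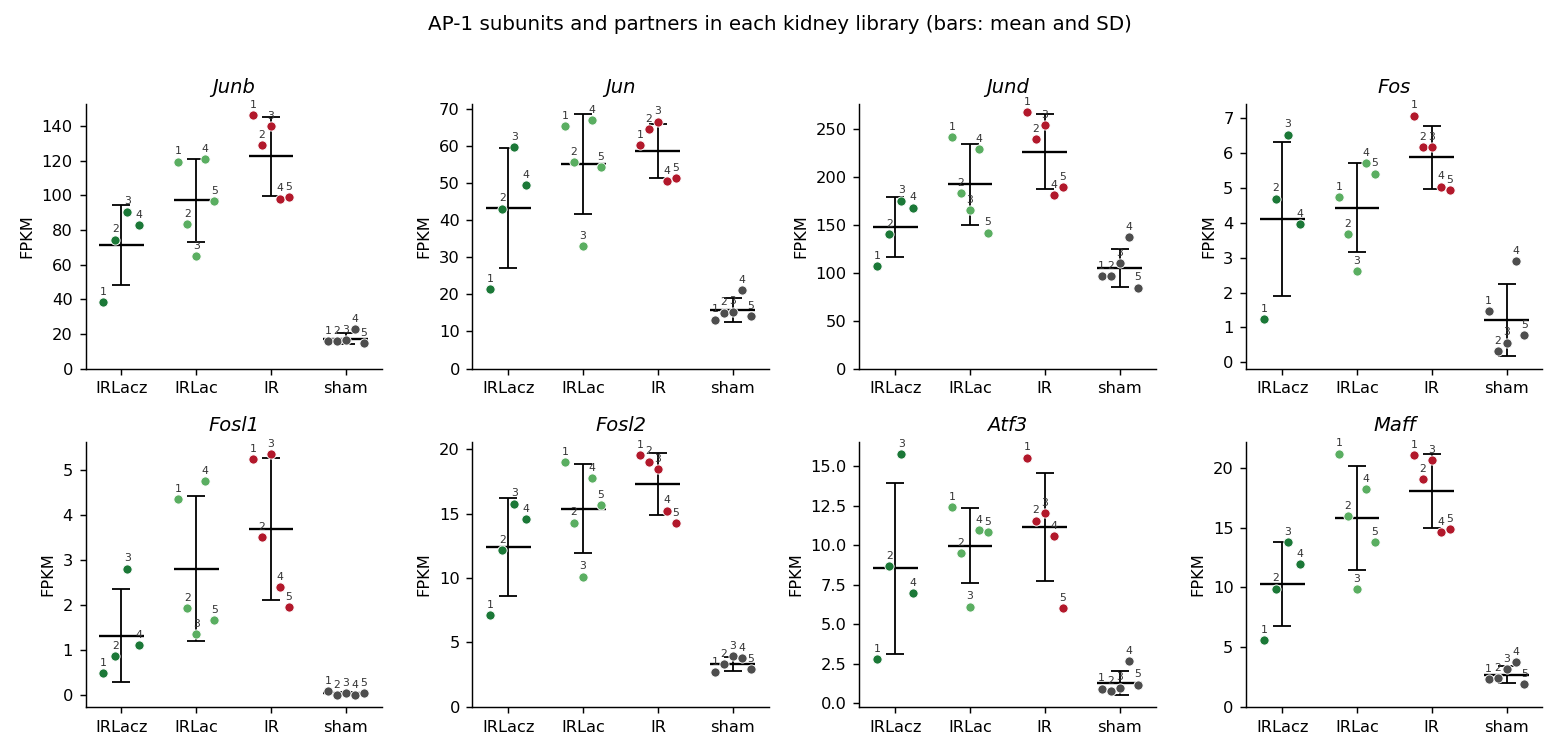
FPKM of 8 genes, AP-1 subunits and partners with the small MAF gene Maff (panels), in each library of the IRLacz, IRLac, IR and sham groups, with replicate numbers beside the points and mean and SD as bars. For Junb the IR libraries lie between 98.08 and 146.3 FPKM and the IRLacz libraries between 38.33 and 90.57 FPKM, with IRLacz replicate 1 lowest, and sham stays at or below 22.8 FPKM.

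The small MAF genes differed among themselves. Small MAF proteins have no activation domain and serve as partners of NRF2 and other factors. Maff was at 21.05, 19.05, 20.62, 14.63 and 14.88 FPKM in IR, against 2.3, 2.39, 3.19, 3.72 and 1.92 FPKM in sham, a log2 difference of 2.37 (SE 0.21, adjusted p = 1.9e-08). Mafg and Mafk, its closest relatives, averaged 34.16 ± 1.13 and 19.43 ± 1.45 FPKM in IR, against 32.5 ± 1.52 and 19.44 ± 1.33 FPKM in sham (adjusted p = 0.275 and 0.988). Under median-ratio scaling both were lower in IR, by -0.26 and -0.32, and exons of Mafk overlap Tmem184a on the opposite strand.

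Cell markers moved in the same contrast. All 8 macrophage and monocyte markers were higher in IR, with a summed level of 1112 to 1587 FPKM in IR and 83.76 to 114.5 FPKM in sham. All 5 fibroblast markers were higher as well, with sums of 506.7 to 622.5 FPKM in IR and 41.27 to 63.14 FPKM in sham. The 6 proximal tubule markers were all lower, with sums of 5674 to 13510 FPKM in IR and 33890 to 38530 FPKM in sham. Of the 4 thick limb and distal tubule markers 3 were lower, with sums of 950.2 to 1626 FPKM in IR and 1775 to 2601 FPKM in sham, and 3 of 5 collecting duct markers were lower, with overlapping sums. All 4 red blood cell markers tested were lower, with sums of 52.94 to 222.1 FPKM in IR and 222.6 to 1352 FPKM in sham. Podocyte markers, of which 3 of 4 were lower and Synpo was higher (0.58), summed to 67.54 to 85.01 FPKM in IR and 82.21 to 98.2 FPKM in sham. Endothelial markers were split, with Pecam1, Cdh5 and Emcn higher and Kdr and Tek lower. Their sums were 86.28 to 95.55 FPKM in IR and 72.27 to 90.94 FPKM in sham. The proximal tubule markers were thus present in every library, as in kidney. The sums for T and NK cells (9 to 23.81 FPKM in IR, 2.79 to 6.9 FPKM in sham) and neutrophils (7.91 to 12.48 FPKM in IR, 0.37 to 2.74 FPKM in sham) were low, and Cd79a and Ms4a1 of B cells and Cxcr2 and Retnlg of neutrophils stayed below the expression minimum. The part of these cells in the bZIP differences was not tested.

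Stress factors of the endoplasmic reticulum and the amino acid response rose unevenly. Atf4, the central factor of the integrated stress response, was at 98.09, 100.35, 111.21, 88.25 and 85.95 FPKM in IR, against 49.52, 58.06, 54.07, 67.23 and 56.52 FPKM in sham. Ddit3, which encodes CHOP and is a target of ATF4, was at 35.11, 31.98, 32.29, 29.49 and 18.12 FPKM in IR, against 13.32, 14.58, 13.85, 14.19 and 12.93 FPKM in sham. The groups did not overlap for either gene, although IR replicate 5 lay well below the other IR libraries for Ddit3. Atf4 rose by 0.75 (SE 0.10, adjusted p = 2.4e-06) and Ddit3 by 1.01 (SE 0.13, adjusted p = 1.6e-06), and Atf5, a relative of ATF4, rose by 1.41 (SE 0.16, adjusted p = 3.5e-07). Exons of Ddit3 overlap Mars and those of Atf5 overlap Nup62 and Il4i1, all on the opposite strand.

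Xbp1 did not pass the threshold. XBP1 protein is made active by splicing of its RNA, which a value per gene does not resolve. Its RNA was at 94.39, 90.31, 115.41, 78.29 and 85.46 FPKM in IR, against 74.36, 92.02, 94.35, 100.54 and 92.26 FPKM in sham. The ranges overlapped, and the log2 difference was 0.03 (SE 0.10, adjusted p = 0.816). Under median-ratio scaling it was lower in IR, by -0.30 (adjusted p = 0.0125). Atf6, another gene of the response to misfolded protein, also missed the threshold (0.07, adjusted p = 0.369) and was at -0.23 with median-ratio scaling. Its relative Atf6b rose by 0.34, and Crebzf, a regulator within this branch, by 0.80. An unnamed locus, BGI_novel_G000593, rose by 0.65 (adjusted p = 0.00175), but its best database match was Atf6b at 100 percent, so the 2 entries may share reads. The Atf6b difference was 0.01 with median-ratio scaling (adjusted p = 0.813).

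The CREB3 factors, which sit in the membrane of the endoplasmic reticulum until cut free, moved in both directions. Creb3l1, also called OASIS, is known for collagen secretion in bone; it was at 8.85, 9.42, 10.47, 8.71 and 9.9 FPKM in IR, against 4.69, 4.15, 4.2, 4.15 and 3.55 FPKM in sham. Creb3l2, its nearest relative, was at 12.04, 12.1, 13.79, 14 and 13.79 FPKM in IR, against 15.21, 16.43, 16.11, 14.28 and 15.42 FPKM in sham. Every IR library was above every sham library for Creb3l1 and below every one for Creb3l2. Creb3l1 rose by 1.02 (SE 0.11, adjusted p = 1.3e-07), Creb3l2 fell by 0.22 (SE 0.06, adjusted p = 0.00333), and the scarce Creb3l4 rose by 0.59 (adjusted p = 0.00155; 0.767 after quantile scaling).

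CREB1 and its relatives switch on genes in response to cyclic AMP when phosphorylated. Creb1 was at 6.74, 6.85, 6.26, 6.37 and 6.19 FPKM in IR, against 4.14, 4.34, 3.65, 4.6 and 4.14 FPKM in sham. The groups did not overlap, and the rise was 0.53 (SE 0.07, adjusted p = 3.3e-06; 0.232 after quantile scaling). Crem rose by 0.76 (adjusted p = 7.3e-05) and Atf1 by 0.30 (adjusted p = 0.00066). The Atf1 value is close to the median of all entries and was -0.01 after median-ratio scaling.

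In the CNC branch Nfe2l2, which encodes the antioxidant regulator NRF2, was at 63.74, 62.27, 65.3, 59.2 and 55.37 FPKM in IR, against 46.01, 43.56, 39.21, 41.5 and 39.91 FPKM in sham. It rose by 0.53 (SE 0.08, adjusted p = 6.9e-06), with no overlap. NRF2 is controlled chiefly by destruction of the protein through KEAP1. Nfe2l3 was at 1.54, 0.87, 1.1, 0.64 and 0.78 FPKM in IR, against 0.22, 0.42, 0.47, 0.36 and 0.32 FPKM in sham. Its log2 difference was 0.53 (SE 0.14, adjusted p = 0.00256), and -0.02 after quantile scaling. Bach1, a repressor that competes with NRF2, rose by 0.21 (adjusted p = 0.02), but missed the threshold without IR replicate 4 (0.0586) and was at -0.08 after median-ratio scaling. Nfe2l1 did not pass the threshold (0.11, adjusted p = 0.128) and was at -0.22 after median-ratio scaling.

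The PAR factors, which are outputs of the circadian clock, went opposite ways. Dbp was at 21.34, 29.13, 20.2, 24.6 and 34.72 FPKM in IR, against 4.8, 13.67, 24.11, 5.99 and 20.92 FPKM in sham. Hlf was at 4.45, 5.14, 6.45, 7.54 and 8.96 FPKM in IR, against 12.82, 13.38, 15.26, 11.96 and 16.04 FPKM in sham. Nfil3, which binds the same D-box as a repressor, was at 11.37, 11.01, 12.03, 8 and 8.05 FPKM in IR, against 16.8, 15.08, 10.78, 14.29 and 10.57 FPKM in sham. Only the Hlf groups did not overlap, and 2 sham libraries of Dbp reached the IR range while replicates 1 and 4 lay far below it. Hlf fell by 1.01 (SE 0.23, adjusted p = 0.00063) and Dbp rose by 1.06 (SE 0.44, adjusted p = 0.0337), while Nfil3 missed the threshold (-0.38, SE 0.22, adjusted p = 0.12). The Dbp call was lost without IR replicate 2 or 5 or sham replicate 1 or 4, and with median-ratio scaling (adjusted p = 0.147). Exons of Dbp overlap Sphk2 on the opposite strand.

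**Figure D3:**
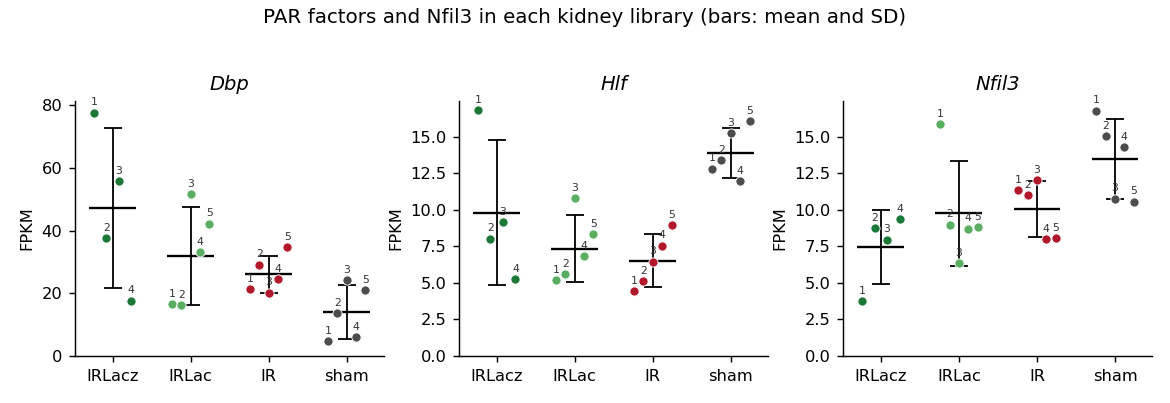
FPKM of Dbp, Hlf and Nfil3 (panels) in each library of the IRLacz, IRLac, IR and sham groups, with replicate numbers beside the points and mean and SD as bars. Dbp spans 17.63 to 77.62 FPKM in IRLacz and 4.8 to 24.11 FPKM in sham, and the library highest in Dbp in each injured group is also highest in Hlf.

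Dbp and Hlf had the same highest library in each injured group, but not in sham (replicate 3 for Dbp at 24.11 FPKM, replicate 5 for Hlf at 16.04 FPKM). The library highest in Dbp was also highest in Hlf in IRLacz (replicate 1, 77.62 and 16.81 FPKM), in IRLac (replicate 3, 51.62 and 10.81 FPKM) and in IR (replicate 5, 34.72 and 8.96 FPKM). The same 3 libraries had the highest sums of proximal tubule markers in their groups, at 25480, 20860 and 13510 FPKM. In sham, replicates 1 and 4 were lowest in both genes, and Arntl, the clock activator that runs out of phase with Dbp, was highest there (10.74 and 11.83 FPKM, against 7.67 to 9.32 FPKM in the other sham libraries). The labels used here give no hour of collection, and the part of these values was not tested.

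Genes that work with the family were followed through 9 lists, to be read beside the 57% higher and 18.6% lower among all entries. Of 14 immediate early genes outside the family that were tested, 13 rose in IR and none fell, with a median of 1.57. Egr2 rose by 2.41 (adjusted p = 5.5e-09), Klf4 by 1.34 and Myc by 2.42, whereas Dusp1 ran from 22.42 to 34.76 FPKM over the IR libraries, against 28.93 to 35.34 FPKM in sham (adjusted p = 0.521). Of 15 tested AP-1 targets of injury and matrix, 15 rose, with a median of 2.97; Timp1, an inhibitor of metalloproteinases, rose by 4.81, Mmp14 by 3.37 and Spp1, osteopontin, by 4.39. The kinase path to AP-1 gave 13 higher and 4 lower of 21, median 0.28, close to the shares of all entries (57% and 18.6%), with Dusp5, Mapk11 and Map2k1 rising by 1.73, 1.84 and 0.60. All 5 C/EBP genes tested rose, Cebpd by 2.33 and Cebpg by 0.61, but Ddit3, which is among the 5, is itself a member.

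The stress, CREB and clock lists were more mixed. Of 18 integrated stress response genes, the member Ddit3 among them, 12 rose and 3 fell, median 0.77. Aldh18a1 and Asns, enzymes of amino acid synthesis, rose by 1.94 and 1.95, and the cytokine gene Gdf15 by 2.44. Of 20 unfolded protein response genes 9 rose and 3 fell, median 0.21, no more than the share of all entries that were higher (57%), with Pdia6 and Sdf2l1 rising by 0.63 and 0.97 and Herpud1 falling by 0.99. Antioxidant genes of NRF2 gave 7 higher and 8 lower of 20, median -0.06, although Abcc3, G6pdx and Pgd rose by 1.84, 0.65 and 0.67. Of 16 CREB coactivators and targets 11 rose and 3 fell; Prkar1a and Crtc3 rose by 0.47 and 0.66, and Pck1, an enzyme of glucose synthesis, fell by 2.31. Among 15 clock genes 5 rose and 4 fell, with Bhlhe40 and Bhlhe41 rising by 1.06 and 1.07 and Nr1d1 falling by 0.63. These lists were chosen with results of these data known, and the median over all entries was 0.29.

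Gavage with Lactobacillus casei Zhang before the injury went with lower RNA of part of the family. In IRLacz 11 of the 38 members were lower than in IR and 0 higher (28.9% lower), beside 7.92% lower and 5.39% higher among all entries tested. The median difference was -0.28 for the members and -0.004 for all entries, and 28 of the 38 were negative. Among the 11 were Fosl1, Junb, Maff, Jund, Atf5, Creb3l1, Ddit3, Atf4, Nfe2l2 and Creb1, with log2 differences of -1.04 to -0.27. Every IRLacz library was below every IR library for 7 of the 38 members (18.4%), Junb, Jund, Maff, Atf4, Nfe2l2, Creb1 and Creb3l1, beside 6.85% of all entries tested. These 7 were all among the called members, which such separation favours. The count of 11 called members was sensitive to single libraries. It was 3 without IR replicate 1 or 2, 1 without IR replicate 3, and 2 without IRLacz replicate 1 or 2. When only the 2 groups were modelled it was 3. Counts over all entries in these settings are not set beside them, so a drop particular to the family is not shown.

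Creb3l1 had the smallest adjusted p. It was at 5.81, 7.66, 5.8 and 6.34 FPKM in the IRLacz libraries, against 8.85, 9.42, 10.47, 8.71 and 9.9 FPKM in the IR libraries. The difference was -0.51 (SE 0.11, adjusted p = 0.011), and it was the only member past the threshold with each library left out in turn. Atf4 was at 61.05, 72.91, 72.86 and 78.96 FPKM in IRLacz, against 85.95 to 111.21 FPKM in IR, a difference of -0.43 (SE 0.11, adjusted p = 0.0163; 0.0531 without IR replicate 3). Ddit3, which in cells under stress follows ATF4, was at 18.22, 18.1, 22.62 and 22.13 FPKM in IRLacz, against 18.12 to 35.11 FPKM in IR. Its groups overlapped because of IR replicate 5, and the difference was -0.49 (SE 0.14, adjusted p = 0.0272). Xbp1 was at 72.2, 67.7, 86.48 and 75.99 FPKM in IRLacz, against 78.29 to 115.41 FPKM in IR, a difference of -0.29 that missed the threshold (adjusted p = 0.0793).

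**Figure D4:**
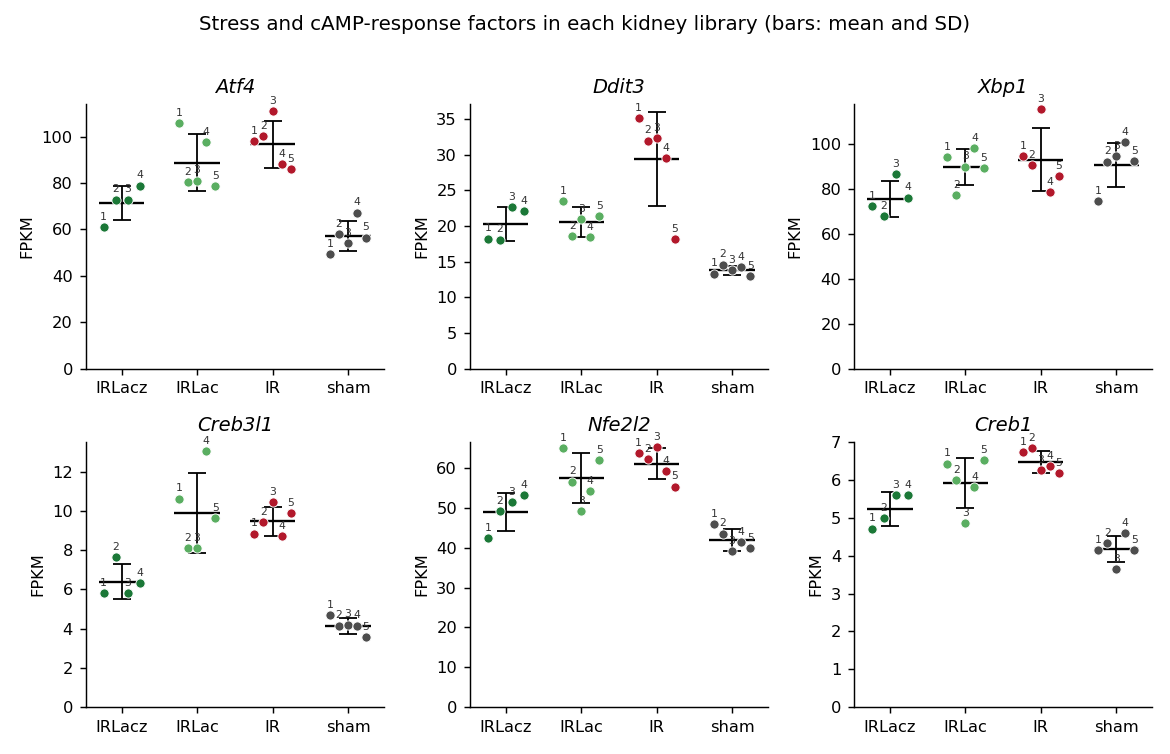
FPKM of Atf4, Ddit3, Xbp1, Creb3l1, Nfe2l2 and Creb1 (panels) in each library of the IRLacz, IRLac, IR and sham groups, with replicate numbers beside the points and mean and SD as bars. The IRLacz and IR ranges are apart for Creb3l1 (5.8 to 7.66 and 8.71 to 10.47 FPKM) and overlap for Xbp1 (67.7 to 86.48 and 78.29 to 115.41 FPKM).

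Among the AP-1 genes, given here with Maff, Junb was at 38.33, 74.48, 90.57 and 82.65 FPKM in IRLacz, against 98.08 to 146.3 FPKM in IR. Jund was at 106.37, 140, 174.87 and 167.59 FPKM in IRLacz, against 180.73 to 266.77 FPKM in IR. Maff was at 5.62, 9.89, 13.81 and 11.95 FPKM in IRLacz, against 14.63 to 21.05 FPKM in IR. Each IRLacz library was below each IR library for the 3 genes, and IRLacz replicate 1 was the lowest each time. The differences were -0.82 for Junb (SE 0.22, adjusted p = 0.025), -0.62 for Jund (SE 0.18, adjusted p = 0.0302) and -0.80 for Maff (SE 0.22, adjusted p = 0.0265). Without IRLacz replicate 1 they missed the threshold, with adjusted p of 0.0761, 0.0991 and 0.0876. Fosl1 was at 0.48, 0.87, 2.81 and 1.11 FPKM in IRLacz, against 1.95 to 5.36 FPKM in IR. Its difference was the largest of the family in this comparison, -1.04 (SE 0.30, adjusted p = 0.0288; 0.0894 without IRLacz replicate 1).

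The remaining AP-1 genes had negative differences that did not pass. Jun was at 21.43, 43.17, 59.74 and 49.48 FPKM in IRLacz, against 50.53 to 66.66 FPKM in IR (-0.51, SE 0.23, adjusted p = 0.151). Fos was at 1.23, 4.69, 6.52 and 3.95 FPKM in IRLacz, against 4.92 to 7.06 FPKM in IR (-0.55, SE 0.31, adjusted p = 0.238). Fosl2 was at 7.15, 12.18, 15.78 and 14.6 FPKM in IRLacz, against 14.26 to 19.57 FPKM in IR (-0.49, SE 0.19, adjusted p = 0.0882). In all 3, IRLacz replicate 3 lay within the IR range. Atf3 ran from 2.78 to 15.76 FPKM over the 4 IRLacz libraries (2.78, 8.68, 15.76 and 6.97), wider than the IR range of 6.01 to 15.53 FPKM (adjusted p = 0.325). Batf was at 1.18, 2.05, 2.96 and 3.12 FPKM in IRLacz, against 1.58 to 5.11 FPKM in IR (adjusted p = 0.346).

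Nfe2l2 was at 42.41, 49.22, 51.58 and 53.17 FPKM in IRLacz, against 55.37 to 65.3 FPKM in IR, a difference of -0.31 (SE 0.08, adjusted p = 0.0206). Creb1 was at 4.72, 5, 5.6 and 5.61 FPKM in IRLacz, against 6.19 to 6.85 FPKM in IR, a difference of -0.27 (SE 0.08, adjusted p = 0.0321). The groups did not overlap for either gene, and without IRLacz replicate 1 the adjusted p was 0.065 and 0.091. Atf5 differed by -0.53 (SE 0.17, adjusted p = 0.0436), and it lost the call without IRLacz replicate 1 (adjusted p = 0.15).

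The clock-linked genes, Creb3l2 and Nfe2l3 did not pass the threshold. Dbp was at 77.62, 37.5, 55.71 and 17.63 FPKM in IRLacz, against 20.2 to 34.72 FPKM in IR (0.68, SE 0.46, adjusted p = 0.327). Hlf was at 16.81, 8.02, 9.14 and 5.23 FPKM in IRLacz, against 4.45 to 8.96 FPKM in IR (adjusted p = 0.214). Nfil3 was at 3.73, 8.77, 7.97 and 9.38 FPKM in IRLacz, against 8 to 12.03 FPKM in IR (adjusted p = 0.212). Replicate 1 of IRLacz was at the edge in all 3 genes, highest in Dbp and Hlf and lowest in Nfil3. Creb3l2 was at 16.18, 15.35, 13.42 and 15.12 FPKM in IRLacz, against 12.04 to 14 FPKM in IR (0.18, adjusted p = 0.0756). Nfe2l3 was at 0.9, 1.24, 0.54 and 1.78 FPKM in IRLacz, against 0.64 to 1.54 FPKM in IR (adjusted p = 0.77).

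IRLacz replicate 1 stood apart across the family. It was the lowest of the 14 libraries of injured kidneys for 22 of the 38 members, including 9 of the 11 called lower, and the highest for 3. Its macrophage marker sum of 463.9 FPKM and its fibroblast sum of 233.8 FPKM were the lowest of the injured libraries, and its proximal tubule sum of 25480 FPKM the highest. The other 3 IRLacz libraries had macrophage sums of 698.6 to 1057 FPKM and fibroblast sums of 300.9 to 374.2 FPKM, against 1112 to 1587 and 506.7 to 622.5 FPKM in IR. In IRLacz, 5 of 8 macrophage and 4 of 5 fibroblast markers were lower than in IR, and none of the 6 proximal tubule markers passed the threshold. The part of these cell types in the differences was not tested.

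The lists of target and stress genes in IRLacz against IR are to be read beside 7.92% lower and 5.39% higher among all entries tested. Calls of list genes were not checked with single libraries left out. Of 20 unfolded protein response genes 11 fell in IRLacz, with a median of -0.28. Hspa5, the main chaperone of the endoplasmic reticulum, was at 179.55, 141.75, 185.5 and 139.88 FPKM in IRLacz, against 285.94, 333.67, 421.86, 298.09 and 219.89 FPKM in IR, a fall of 0.92 with no overlap (SE 0.15, adjusted p = 0.00487). Creld2, another chaperone gene, fell by 0.85 (adjusted p = 0.00578), also with no overlap. Of the 15 AP-1 targets 7 were lower, median -0.56; Hbegf, a growth factor gene, fell by 0.72 (adjusted p = 0.00487). Of 14 immediate early genes 6 were lower, median -0.49, with Ccn1 falling by 1.35 and Egr2 by 0.87. Of the kinase path 2 were higher and 3 lower of 21, among them the phosphatase genes Dusp5 and Dusp4, which fell by 0.87 and 0.70. Of 5 C/EBP genes 2 were lower, the member Ddit3 and Cebpb (-0.75). Of 18 genes of the ATF4 list 3 were lower, Ddit3 again, Gdf15 (-1.04) and Aldh18a1 (-0.47). NRF2 genes gave 1 higher and 3 lower of 20, with Hmox1, heme oxygenase 1, falling by 0.86 and Pgd by 0.32. Of 15 clock genes 1 was higher and 1 lower (Cry2 0.40, Bhlhe40 -0.55), and of 16 CREB genes 1 was higher, Ppargc1a (0.74). Both lists were near the shares of all entries.

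The other strain left no called member. In IRLac 0 of the 38 members were higher or lower than in IR by limma (2 at an unadjusted p under 0.05), beside 0% higher and 0.00736% lower among all entries (786 at an unadjusted p under 0.05). The log2 differences lay between -0.47 and 0.17 and their median was -0.10. The 2 members with the smallest p were Ddit3 and Nfe2l3. Ddit3 was at 23.53, 18.59, 20.97, 18.46 and 21.39 FPKM in IRLac, against 35.11, 31.98, 32.29, 29.49 and 18.12 FPKM in IR (-0.47, SE 0.13, adjusted p = 0.308). All IRLac libraries lay below 4 of the 5 IR libraries and above IR replicate 5, and without that library the adjusted p was 0.00088. Nfe2l3 was at 0.59, 0.46, 0.41, 0.68 and 0.86 FPKM in IRLac, against 0.64 to 1.54 FPKM in IR (-0.30, SE 0.14, adjusted p = 0.86). None of the 9 lists had a called gene.

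For the AP-1 genes and Maff, the IRLac libraries overlapped the IR range. Junb was at 119.41, 83.58, 64.81, 120.77 and 96.63 FPKM in IRLac, against 98.08 to 146.3 FPKM in IR (-0.35, SE 0.21, adjusted p = 0.931). Jun was at 65.45, 55.75, 33.14, 67.12 and 54.37 FPKM in IRLac, against 50.53 to 66.66 FPKM in IR (adjusted p = 0.994). Fosl2 was at 19.01, 14.31, 10.12, 17.77 and 15.68 FPKM in IRLac, against 14.26 to 19.57 FPKM in IR (adjusted p = 0.985). In each, replicate 3 of IRLac was lowest, as it was within its group for 23 of the 38 members, and its macrophage sum of 663.9 FPKM was also the lowest of that group. Fos was at 4.73, 3.68, 2.62, 5.71 and 5.4 FPKM, Fosl1 at 4.35, 1.93, 1.36, 4.75 and 1.67 FPKM and Atf3 at 12.39, 9.52, 6.12, 10.94 and 10.81 FPKM in IRLac. Jund was at 240.91, 182.69, 165.29, 228.7 and 141.57 FPKM, Maff at 21.2, 15.97, 9.83, 18.23 and 13.78 FPKM and Batf at 3.48, 1.93, 2.38, 3.24 and 2.8 FPKM in IRLac. Each of these ranges overlapped that of IR.

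The named members of the other branches also had IRLac libraries within or across the IR range. Nfe2l2 was at 65.15, 56.67, 49.23, 54.33 and 62.06 FPKM in IRLac, against 55.37 to 65.3 FPKM in IR (-0.09, SE 0.08, adjusted p = 0.985). Creb1 was at 6.44, 6.01, 4.87, 5.81 and 6.53 FPKM in IRLac, against 6.19 to 6.85 FPKM in IR (-0.12, SE 0.07, adjusted p = 0.946). Xbp1 was at 93.89, 77.11, 89.79, 98.08 and 89.24 FPKM in IRLac, against 78.29 to 115.41 FPKM in IR (adjusted p = 0.997). IRLac replicate 3 was the lowest of its group for Nfe2l2 and Creb1, as for the AP-1 genes. Creb3l2 was at 14.8, 14.8, 13.51, 13.52 and 15.12 FPKM in IRLac, against 12.04 to 14 FPKM in IR (adjusted p = 0.901). Among the clock-linked genes the IRLac libraries spread widely. Dbp was at 16.64, 16.29, 51.62, 33.02 and 42.22 FPKM in IRLac, against 20.2 to 34.72 FPKM in IR (0.17, SE 0.43, adjusted p = 0.997). Hlf was at 5.17, 5.61, 10.81, 6.81 and 8.34 FPKM in IRLac, against 4.45 to 8.96 FPKM in IR (adjusted p = 0.994). Nfil3 was at 15.9, 9, 6.37, 8.72 and 8.83 FPKM in IRLac, against 8 to 12.03 FPKM in IR (adjusted p = 0.997).

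Set against each other, the strains gave no call in the family. In IRLacz 0 of the 38 members differed from IRLac, beside 0.00736% higher and 0.0147% lower among all entries. At an unadjusted p under 0.05 there were 11 of the 38 members and 2171 of all 13594 entries. Creb3l1 came closest, at 5.81, 7.66, 5.8 and 6.34 FPKM in IRLacz, against 10.64, 8.11, 8.12, 13.05 and 9.63 FPKM in IRLac. The groups did not overlap, and the difference was -0.55 (SE 0.11, adjusted p = 0.0753), which passed the threshold without IRLac replicate 3 (0.0126). Atf4 was at 61.05 to 78.96 FPKM in IRLacz, against 105.82, 80.35, 81.06, 97.78 and 78.56 FPKM in IRLac (-0.30, SE 0.11, adjusted p = 0.188). The members called in IRLacz against IR and not in IRLac against IR are therefore not shown to respond differently to the strains.

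Most members were also called in the gavaged groups against sham. In IRLacz 30 members were higher and 3 lower than in sham, beside 56.9% higher and 13.5% lower among all entries, and in IRLac 28 were higher and 1 lower, beside 58% and 16.8%. The split depended on scaling: in IRLacz it was 17 higher and 8 lower with median-ratio and 15 and 9 with quantile scaling (all entries 4255 and 4218, and 3518 and 4215), and in IRLac 19 and 9, and 19 and 8 (all entries 4580 and 4595, and 4141 and 4822). These comparisons share the sham libraries with that of IR, so their values are only set side by side. For Junb the log2 difference from sham was 1.95 in IRLacz, 2.41 in IRLac and 2.76 in IR. For Maff it was 1.57, 2.16 and 2.37 in the same order, for Fosl1 1.07, 1.79 and 2.12, for Atf4 0.32, 0.62 and 0.75, and for Creb3l1 0.52, 1.07 and 1.02. With median-ratio scaling the IRLacz values of Atf4 and Creb3l1 were -0.01 (adjusted p = 0.932) and 0.24 (adjusted p = 0.0629), and with quantile scaling those of Creb3l1 and Fosl1 were 0.07 (adjusted p = 0.592) and 0.67 (adjusted p = 0.0621). Nfil3 was called lower than in sham only in IRLacz (-0.82, adjusted p = 0.00457), beside -0.47 in IRLac and -0.38 in IR, and Xbp1 was also lower there (-0.26, adjusted p = 0.037). The Xbp1 call was lost with TPM scaling (adjusted p = 0.0635) and without any one of IRLacz replicates 1, 2 and 4 or sham replicates 2 to 5. It held with median-ratio (-0.59, adjusted p = 0.00014) and quantile scaling (-0.27, adjusted p = 0.0373). Hlf was the third member lower than in sham (-0.56, adjusted p = 0.0475). Its call was lost with TPM scaling too (adjusted p = 0.0571) and without any one of IRLacz replicates 2, 3 and 4, among other libraries. With median-ratio and quantile scaling Hlf stayed lower, by 0.87 (adjusted p = 0.0088) and 0.89 (adjusted p = 0.0107). Whether Nfil3, Xbp1 and Hlf differ from the other groups is given by the tests of IRLacz against IR and IRLac above, which none of them passed.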

How the data were processed

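RNA from mouse kidney was extracted with Trizol and sequenced from standard Illumina libraries, per the labels' protocols. The authors deposited 1 table of FPKM values with 2 decimals. The submitters' processing notes name mm9 as the build, and StringTie 1.0.4 and HISAT as tools, without their roles. What is not given in the sources used here is the annotation, the use of strand and the handling of shared reads, and read depth is unknown; FPKM totals were 545590 to 584798 per library, which is not a depth, so no interval or floor is given. The percent identity of each factor to its best database match comes from the list deposited by the authors.

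Gene IDs were paired with symbols through a RefSeq table of another build (18238 of 19287 entries), used for names only. Promoter windows came from RefSeq (GRCm38.p6) and exon overlaps from a GENCODE annotation of GRCm38. An entry was tested if 4 or more libraries reached 1 FPKM, which 13594 did. A single limma model (version 3.58.1, under R 4.3.3) held the log2(FPKM + 1) values of all 19 libraries and used a trended variance. P-values were adjusted by Benjamini-Hochberg within each of 6 comparisons at a threshold of 0.05. Log2 differences with a pseudocount of 1 understate the change of low genes. The steps were tested on simulated data. Libraries of a group correlated at 0.9604 to 0.9929, and 0 pairs were identical. Titles of the samples gave the groups and the numbering.

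Values in every library are given for a fixed set of members, for the largest rises and falls in IR against sham, and for members with the smallest p in the comparisons of gavaged groups. From each list up to 3 genes with the smallest adjusted p in IR against sham and up to 2 called genes in IRLacz against IR are named; Dusp1 and Arntl, outside that rule, were chosen after their values were seen. Some items are not reported here. The members, roles, lists and letters searched were chosen with earlier results of these data known. Alternatives were other pseudocounts, filters, scalings and identity minimums, no trend, library weights, only the compared groups, a replicate block and leaving out each library.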

Additional observations from a re-analysis of the deposited data

Results flagged for a closer look

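A gap between 1 library and the rest of its group, larger than Dixon's 95% limit, was found in 4 of 84 combinations of a named member and a group; chance alone gives about 1 in 20. Sham replicate 4 was the highest sham library for Jun (21.24 FPKM, against 13.23 to 15.34 FPKM in the others), for Junb (22.8 FPKM, against 14.7 to 16.46 FPKM) and for Atf3 (2.65 FPKM, against 0.77 to 1.18 FPKM). It was also highest for Fos (2.91 FPKM) and Fosb (6.73 FPKM), which is no member. IRLac replicate 1 was highest for Nfil3, with 15.9 FPKM against 6.37 to 9 FPKM in the other IRLac libraries.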

How the results depend on the processing

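In IRLacz against IR the number of members called, 11, became 3 when the model held those groups alone. It was 6 without IRLacz replicate 1 and IRLac replicate 3 together (an alternative chosen after seeing the data), and 1 to 13 with single libraries left out. The number of all entries called in each setting is not given beside the counts of this paragraph, so these counts do not show a change particular to the family. The labels do not say whether the numbering pairs libraries, and the main fit did not treat them as paired. In deviations from the group means, 27 same-numbered pairs correlated at -0.394 to 0.23, with 6 above 0.1, and 3 of 19 libraries correlated best with their own number. These correlations showed no strong pairing and cannot show that a weak one is absent. With the replicate block the counts were 31 in IR against sham, 9 in IRLacz against IR and 27 in IRLacz against sham, beside 31, 11 and 33. In IRLac against IR the count was 0 to 1 with single libraries left out. In IRLacz against IRLac it was 0 to 1, and 1 with library weights and 1 without the 2 libraries named above. Totals called against sham, higher and lower together, stayed within 1.5 times in every alternative run, while their split did not.

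Differences of named members from sham that turned sign with another scaling follow. With median-ratio scaling the differences were -0.304 for Xbp1 in IR against sham, and -0.011 for Atf4, -0.112 for Nfe2l2 and -0.008 for Creb1 in IRLacz against sham. With quantile scaling they were -0.023 for Nfe2l3 in IR against sham, -0.038 for Creb1 and -0.308 for Nfe2l3 in IRLac against sham, and -0.19 for Creb1 in IRLacz against sham. The cause was not tested. Members higher and lower than in sham were 19 and 9 in IRLac and 17 and 8 in IRLacz with median-ratio scaling, beside 28 and 1, and 30 and 3; with quantile scaling they were 19 and 8, and 15 and 9. In IRLacz against IR the split was 0 and 12 with median-ratio scaling, 0 and 8 when rescaled to TPM, and 1 and 11 with quantile scaling. All entries gave 722 and 1334, 697 and 831, and 1054 and 1197 in the same order, beside 733 and 1076 in the main fit. Depth is unknown, so levels near 0, such as Fosl1 in sham, have no stated error of counting.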

Other observations

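The 3 bZIP genes Creb3, Tef and Jdp2 missed the identity minimum and are given as values only. Creb3, the founder of the membrane-bound CREB3 group, was at 37.62, 43.21, 48.59 and 50.1 FPKM in IRLacz, at 44.64 to 56.33 FPKM in IR and at 26.58 to 30.83 FPKM in sham. Every injured library was above every sham library. Tef, the PAR relative of Dbp and Hlf, was at 71.81, 46.61, 46.97 and 32.52 FPKM in IRLacz, at 27.92 to 41.35 FPKM in IR and at 42.26 to 67.58 FPKM in sham. IRLacz replicate 1 was the highest library for Tef as it was for Dbp and Hlf, and the IR range lay below the sham range. Jdp2, a repressor that pairs with JUN, was at 5.86 to 8.71 FPKM in IRLacz, at 5.54 to 9.47 FPKM in IR and at 4.54 to 7.09 FPKM in sham, with overlap between the groups.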
